A study of Homo sapiens with 24 samples.

Results

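The insulin-like growth factor (IGF) binding proteins and the receptors and substrates of IGF signalling were followed through a microarray study of MCT1, a plasma membrane carrier of lactate and pyruvate, in 3 established human breast cancer cell lines. The 10 genes were IGFBP2, IGFBP3, IGFBP4, IGFBP5, IGFBP6, IGFBP7, IGF1R, IGF2R, IRS1 and IRS2, and each was on the array, which named 19775 genes in all. They were measured by 27 of the 54675 probe sets, groups of short oligonucleotides that read a transcript together. They were chosen by name with results of these arrays in view, IGFBP7 for its largest decrease with an shRNA against MCT1, so every value of that comparison is given for these genes as a description, without a test. Unless another probe set is named, a gene is given by its brightest one, and all 10 genes were above the filter on dim signals that left 14141 genes for testing. Of the 27 probe sets, 20 were above that filter.

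IGF1 and IGF2 act through the receptor tyrosine kinase IGF1R, which phosphorylates the insulin receptor substrates IRS1 and IRS2, and these in turn recruit the PI3K and AKT kinases that drive growth and nutrient uptake. IGF2R, the cation-independent mannose 6-phosphate receptor, binds IGF2 without kinase signalling and carries it to lysosomes. The IGF binding proteins are secreted carriers that hold IGFs away from the receptor or release them near it, and IGFBP7 differs from the others in its low affinity for IGFs. In breast cancer cells this axis is known for its links to proliferation, survival and response to endocrine therapy.

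RNA was measured on 24 Affymetrix arrays in 8 groups of 3. HS578T, SUM149PT and SUM159PT cells received either AZD3965, a small-molecule MCT1 inhibitor, or its solvent DMSO for 24 hours, at a dose that the labels do not state. SUM149PT cells also received a lentivirus with a scrambled shRNA or with an shRNA against MCT1, and both of these groups were selected in puromycin at 2 µg/ml for 5 days. How many hairpins or clones lie behind the shRNA groups is not stated in the labels. HS578T was grown in DMEM with 10% FBS. Both SUM lines were grown in F12 with 10% FBS, gentamicin at 0.5 mg/ml, EGF at 10 ng/ml, and insulin and hydrocortisone at 10 µg/ml each. HS578T therefore differed from the SUM lines in medium, added insulin included, and the effect of the line and that of its medium cannot be told apart. Whether the 3 arrays of a group stand for independent cultures is not stated in the labels, and p-values here capture array-to-array spread alone, possibly of technical origin.

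Stretches of 250 bases that end at the annotated start site are shown for 4 of the genes, because 3 of them were higher and 1 was lower on the MCT1 shRNA arrays. The sequences are RefSeq's on GRCh38.p14, 5′ to 3′ on the gene's own strand, and capitals mark matches to the motifs searched.
IRS2, chr13:109786584-109786833, minus strand: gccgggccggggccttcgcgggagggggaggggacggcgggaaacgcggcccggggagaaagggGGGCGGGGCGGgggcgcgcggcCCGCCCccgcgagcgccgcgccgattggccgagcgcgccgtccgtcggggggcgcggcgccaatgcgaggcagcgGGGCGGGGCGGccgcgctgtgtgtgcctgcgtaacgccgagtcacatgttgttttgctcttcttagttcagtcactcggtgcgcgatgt
IGF2R, chr6:159968832-159969081, plus strand: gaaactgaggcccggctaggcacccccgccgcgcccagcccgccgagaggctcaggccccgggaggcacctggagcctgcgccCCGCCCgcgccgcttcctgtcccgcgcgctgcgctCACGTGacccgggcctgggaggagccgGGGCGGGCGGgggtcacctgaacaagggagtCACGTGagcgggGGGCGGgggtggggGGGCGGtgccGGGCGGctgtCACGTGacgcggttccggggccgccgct
IGFBP3, chr7:45921273-45921522, minus strand: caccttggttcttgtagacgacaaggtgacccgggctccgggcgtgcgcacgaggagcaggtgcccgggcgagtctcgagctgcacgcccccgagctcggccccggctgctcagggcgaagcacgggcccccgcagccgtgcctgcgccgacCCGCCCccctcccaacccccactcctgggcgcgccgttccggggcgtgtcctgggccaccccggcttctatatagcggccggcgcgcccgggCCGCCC
IGFBP6, chr12:53097417-53097666, plus strand: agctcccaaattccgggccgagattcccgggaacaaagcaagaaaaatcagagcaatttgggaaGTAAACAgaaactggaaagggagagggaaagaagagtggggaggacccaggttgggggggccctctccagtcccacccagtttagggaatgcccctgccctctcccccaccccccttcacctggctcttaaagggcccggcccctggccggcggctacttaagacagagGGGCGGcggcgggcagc
The motifs were searched on both strands: the GC box GGGCGG, the E-box CACGTG, the hypoxia element core ACGTG, the FOXO site TGTTTAC, the cyclic AMP response element TGACGTCA, the amino acid response element TGATGCAA and the TATA box TATAAA. Overlapping matches are written as 1 run of capitals. The IGF2R stretch held 3 E-boxes and 6 GC boxes, and all 6 matches to the hypoxia core, which were not counted apart, lay inside the E-boxes. Of the 35116 stretches of this length in the reference, 6.34% held an E-box, 42.6% a GC box and 18.5% the hypoxia core. The IRS2 stretch held 5 GC boxes, and that of IGFBP3 held 2. The IGFBP6 stretch held 1 GC box and 1 FOXO site, here on the reverse strand, and 2.98% of all stretches held a FOXO site. Stretches were found for 9 of the 10 genes, all but IGFBP7, and numbered 11 in all since IGFBP2 had 3. IGFBP2 was also higher on the MCT1 shRNA arrays, and its stretches are not shown. The stretches of IGF2R and IGF1R held the hypoxia core while that of IGFBP4 held a TATA box. Neither the cyclic AMP response element nor the amino acid response element was found in any of the 11, and they occurred in 1.65% and 0.772% of all stretches. A match describes letters only and is not a site of binding.

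Before deposition every array had been brought to the same trimmed mean, 500.1. The third scramble array stood apart in its control probes: the ratio of the 3′ to the 5′ actin probe set was 53.8 there and 1.2 to 2.14 on the other 23 arrays, and the ratio for GAPDH was 2.35 against 0.798 to 0.948. This ratio is a usual sign of RNA quality, its part in the results was not tested, and values are also given without that array. The level of the gene targeted by the shRNA was not analysed here, so the knockdown labels were not checked. The lines differed in epithelial and mesenchymal markers. EPCAM was at 14966 ± 551 (SD, n = 3) in SUM149PT under DMSO, 12.5 ± 3.86 in HS578T and 54.6 ± 35.9 in SUM159PT, while ZEB1, a mesenchymal transcription factor, was at 86.1 ± 16.8, 4895 ± 34.7 and 3763 ± 26.3. Summed over 7 epithelial markers the DMSO arrays read 51697 to 54191 in SUM149PT, 7812 to 8093 in HS578T and 9452 to 11385 in SUM159PT, and over 6 mesenchymal markers 31154 to 34516, 81791 to 86478 and 56375 to 61451. Of the 7 epithelial markers all 7 were called higher in SUM149PT than in SUM159PT, while HS578T had 1 higher and 6 lower than SUM149PT and 2 higher and 3 lower than SUM159PT. KRT14, a basal keratin, did not follow EPCAM, at 1881 ± 65.1 in HS578T, 234 ± 9.29 in SUM149PT and 9.49 ± 9.08 in SUM159PT. Of the 6 mesenchymal markers HS578T had 6 higher than SUM149PT and 4 higher than SUM159PT, and SUM149PT had 1 higher and 4 lower than SUM159PT. The part of cell state in the differences between lines given here was not tested. Scramble and MCT1 shRNA arrays read 45105 to 49539 and 52637 to 57090 (57090.5 at the highest) for the epithelial sum, with 1 of the 7 markers called higher, and 22127 to 23153 and 20223 to 25121 for the mesenchymal sum, with 1 of the 6 called higher. No marker was called with AZD3965. Markers of other cell types were summed in the same way. Under DMSO in HS578T, SUM149PT and SUM159PT the 3 named of 5 leukocyte markers read 86.4 to 152, 359.5 to 449 and 84.5 to 170, and 2 of them were tested. Of these, 1 was lower in HS578T than in SUM149PT, and between the SUM lines 1 was higher and 1 lower in SUM149PT. CD14 carried the sum in SUM149PT (389 ± 54.3), while PTPRC, the defining marker, was at 0.719 to 47.5 on all arrays. The 5 endothelial markers read 371 to 506, 152 to 278 and 200.3 to 265, and the single one tested was higher in HS578T than in both other lines. PECAM1 (338 ± 81 in HS578T) carried that sum, while CDH5 and VWF were at 2.84 to 89.5 on all arrays. The 4 adipocyte markers read 161 to 220.2, 1050 to 1161 and 137 to 213, most of it LPL, which read 1104 ± 60.8 in SUM149PT, was called higher there than in the other lines, and was at 2279 ± 330.5 with scramble and 2526 ± 86.2 with the knockdown. None of the tested leukocyte, endothelial or adipocyte markers was called with the shRNA, and their part in the results was not tested.

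**Figure D1:**
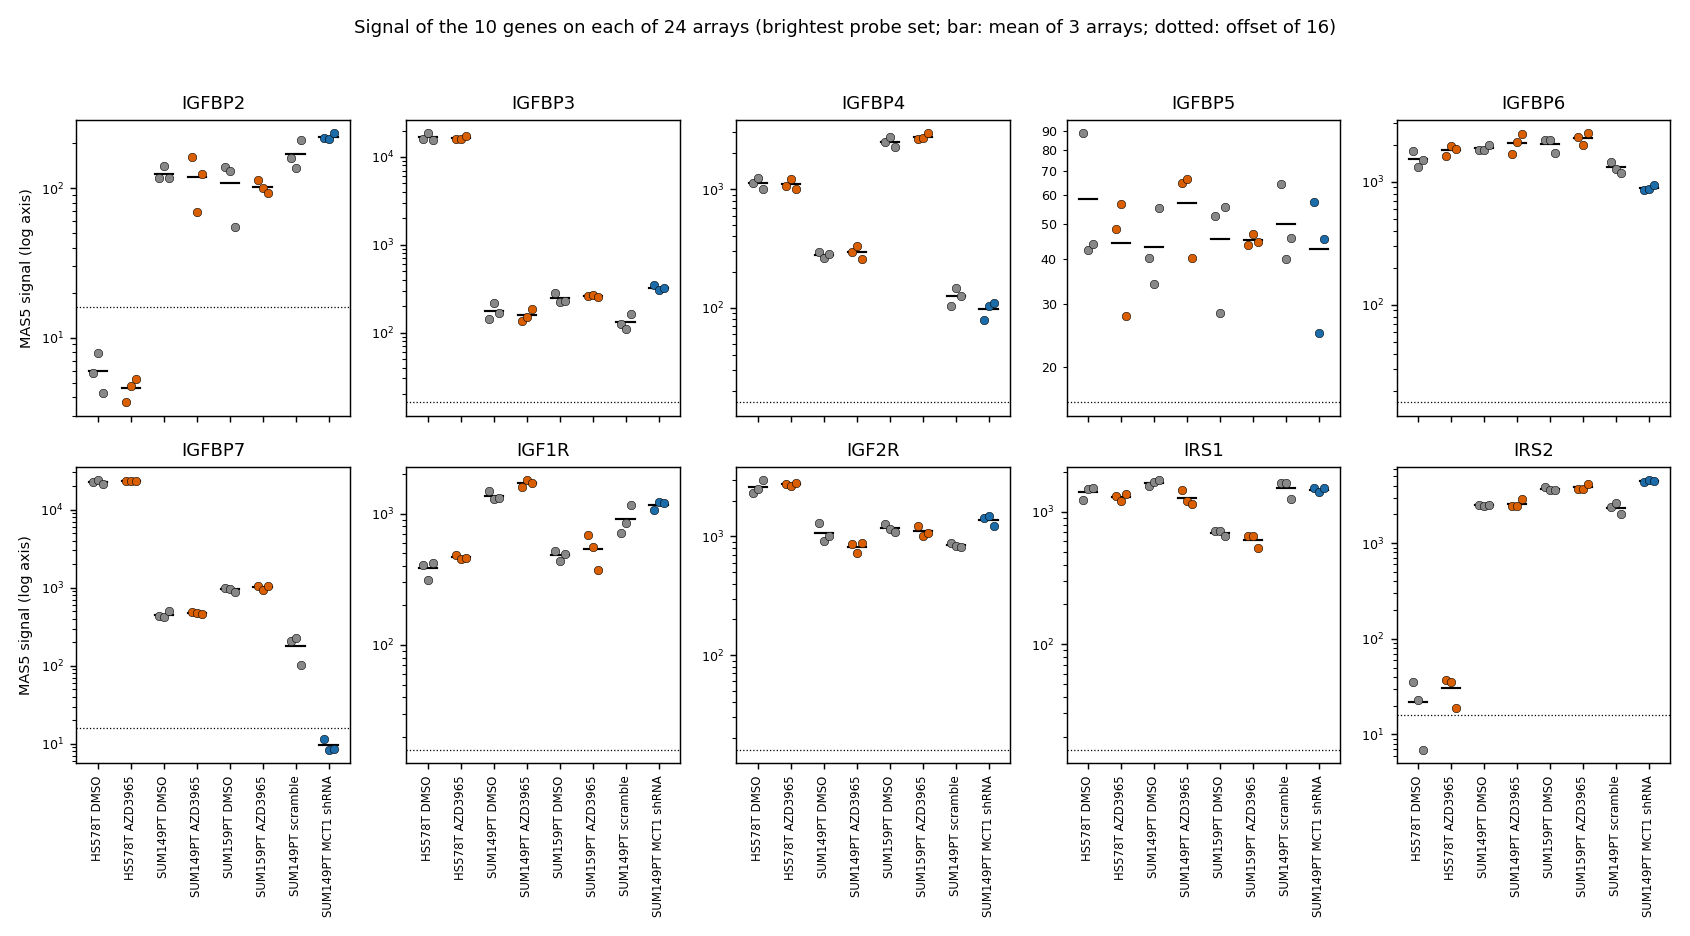
MAS5 signal (log axis) of the brightest probe set of each gene on all 24 arrays, by group; points are arrays, bars are means of 3 arrays, and the dotted line is the offset of 16 added before taking log2. IGFBP3 and IGFBP7 stand far higher in HS578T than in the SUM lines, IRS2 and IGFBP2 stand lowest in HS578T, and the 3 MCT1 shRNA arrays read between 8.48 and 11.6 for IGFBP7.

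The first question was how these genes stood with MCT1 knockdown in SUM149PT. IGFBP7, a secreted protein found in basement membrane and vessel walls and often silenced in tumours, was lower by more than any other of the 14141 genes. Its signal was 205, 224 and 102 on the scramble arrays and 11.6, 8.48 and 8.64 on the MCT1 shRNA arrays. Every knockdown array lay below every scramble array, and the knockdown signals were under the offset of 16. On the log2(signal + 16) scale, used for all differences here, the knockdown was lower by 7.23-fold, a log2 difference of -2.85 ± 0.16 (SE). Each SE of a difference comes from the fit of all 24 arrays, which pools the spread within the 8 groups. It is not the spread of the compared arrays alone. The size depended on the offset, from -1.67 at 64 to -4.01 at 1, and it was -3.17 without the third scramble array. SUM149PT cells given DMSO in the inhibitor experiment read 428, 419 and 501, above the scramble arrays as well.

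IGFBP3, the main carrier of IGFs in serum, stood on the other side. Its signal was 127, 109.7 and 163 with scramble and 347, 306 and 324 with the knockdown. The groups did not overlap, the log2 difference was 1.21 ± 0.14 (SE), and 66 of the 14141 genes were higher by more. IGFBP6, which prefers IGF2 to IGF1, read 1457, 1279 and 1179 with scramble and 861, 869 and 940.0 with the knockdown, without overlap and lower by 1.45-fold, a log2 difference of -0.54 ± 0.13.

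The remaining binding proteins differed less. IGFBP2, a carrier often abundant in tumours, read 160.3, 136 and 212 with scramble and 219, 214 and 234 with the knockdown, so that the groups only just did not overlap, with a log2 difference of 0.38 ± 0.26. IGFBP4, an inhibitory carrier cleaved by the protease PAPPA, read 104, 147 and 126 against 78.5, 104 and 110.5, with overlap and a log2 difference of -0.31 ± 0.13. That of IGFBP4 was -0.18 without the first knockdown array and -0.21 without the second scramble array, and that of IGFBP2 was 0.25 without the second scramble array. IGFBP5, a carrier that also binds extracellular matrix, differed by -0.19 ± 0.29, less than its standard error, and by 0.045 without the second knockdown array.

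IRS2, the docking protein that couples IGF1R and the insulin receptor to PI3K, read 2385, 2652 and 2031 with scramble and 4391, 4541 and 4466 with the knockdown. The knockdown arrays lay close together and far above the scramble arrays, with a log2 difference of 0.93 ± 0.19. Its relative IRS1 read 1651, 1644 and 1261 against 1509, 1408 and 1512, with overlap and a log2 difference of -0.03 ± 0.11, whose sign turned with 1 of the scramble or knockdown arrays left out (-0.16 to 0.035). IGF2R read 883, 831 and 808 with scramble and 1435, 1495 and 1233 with the knockdown, again without overlap, and differed by 0.71 ± 0.12. IGF1R read 716, 855 and 1162 against 1068, 1218 and 1206: 1 scramble array, the third, lay among the knockdown arrays, and the log2 difference was 0.37 ± 0.17 with it and 0.56 without it. Without the first scramble array the IGF1R difference was 0.22.

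In all, 6 of the 10 genes did not overlap between the groups, 4 higher with the knockdown (IGFBP2, IGFBP3, IGF2R and IRS2) and 2 lower (IGFBP6 and IGFBP7), where 29.8% of all genes tested did not overlap, 14.6% higher and 15.2% lower. Since the comparison served to list the genes, nothing is read from that count. The median log2 difference was 0.17 over the 10 genes and -0.0034 over all genes tested. Without the third scramble array, a comparison of 3 arrays with 2, 8 of the 10 and 43.5% of all genes did not overlap. Without the third scramble array the differences kept their signs in all 10 genes, at 1.35 for IGFBP3, 0.82 for IRS2, 0.68 for IGF2R, -0.61 for IGFBP6, 0.54 for IGFBP2 and -0.16 for IRS1. Under median centring, where the median of all genes lay at -0.12, IGFBP3, IRS2, IGF2R, IGF1R and IGFBP2 stayed above 0 and the other 5 below.

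Other probe sets of the same genes were read in the same arrays. The second IGFBP7 probe set, 201163_s_at, read 117, 127 and 120.2 with scramble and 33.5, 36.5 and 13.3 with the knockdown, also without overlap but with a smaller log2 difference of -1.70 ± 0.23, and 213910_at was under the filter, at 0.871 to 6.58 with scramble and 3.78 to 12.2 with the knockdown. Averaged over its probe sets, IGFBP7 differed by -1.39. For IGFBP3 the second probe set, 212143_s_at, went from 7.38, 8.45 and 12.4 to 106, 51.8 and 78.2, a log2 difference of 1.86 ± 0.27. Those of IRS2 (1.08 ± 0.24) and IGF2R (0.84 ± 0.21) had the same sign as the brightest ones, whereas IRS1 was near 0 by its brightest probe set and differed by 0.34 ± 0.22 and 0.27 ± 0.21 by the other two. IGF1R, at 0.37 by its brightest probe set, differed by 0.19 ± 0.20 by 225330_at and -0.0016 ± 0.42 by 203628_at, each less than its standard error. IGFBP5 lay on the other side of 0 by its other probe sets past the filter, 0.58 ± 0.33 by 211958_at and 0.049 ± 0.35 by 211959_at.

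**Figure D2:**
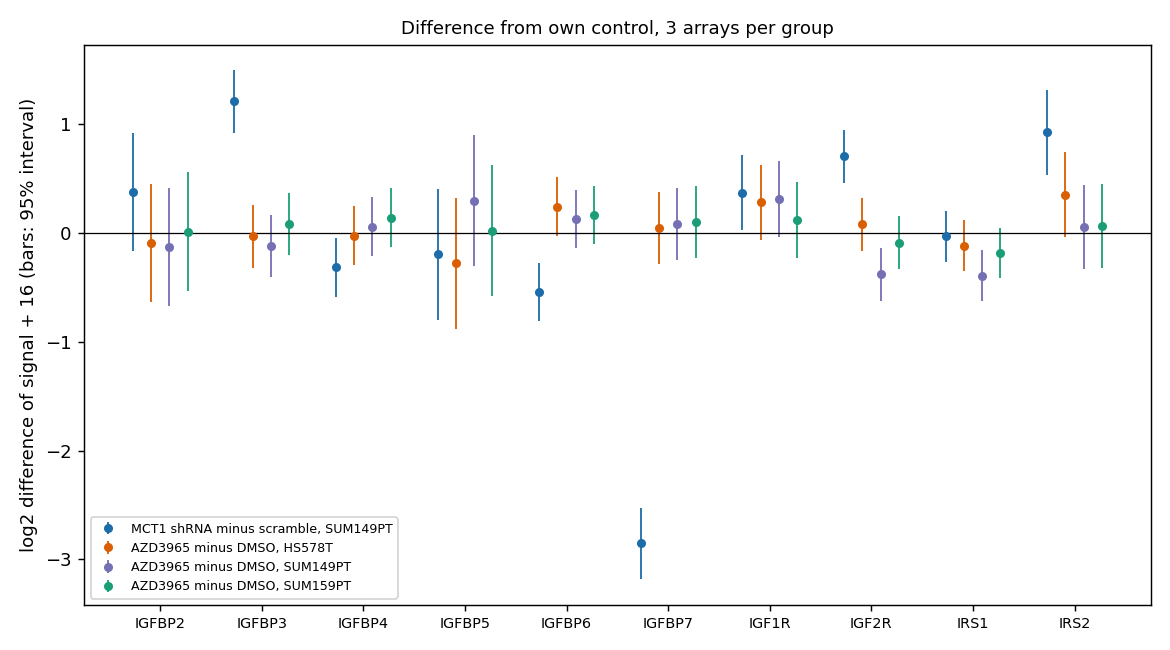
Log2 difference of signal + 16 between treated and control arrays for each gene in the 4 treatment comparisons; points are differences of group means and bars are 95% intervals of the fit. IGFBP7 lies at -2.85 and IGFBP3 at 1.21 with MCT1 shRNA, while the AZD3965 differences of all 10 genes lie between -0.39 and 0.35. The MCT1 shRNA comparison served to choose IGFBP7, so its bars are a description and not a test.

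Acute inhibition was compared next, AZD3965 against DMSO in each line. None of the 10 genes passed an adjusted p of 0.05 in limma in any line or for the mean of the lines, where the share of all genes called was 0.304% in HS578T, 0.0283% in SUM149PT, 0% in SUM159PT and 0.0283% for the mean. At an unadjusted p under 0.05 there were 0 genes in HS578T, 2 in SUM149PT (IRS1 and IGF2R), 0 in SUM159PT and 3 for the mean (IRS1, IGF1R and IGFBP6), where the share of all genes at that threshold was 8.28%, 16.5%, 6.75% and 14.5%. The median log2 difference over the 10 genes was 0.0094, 0.06 and 0.073 in the 3 lines, and over all genes -0.019, 0.041 and 0.0035. The widest 95% interval reached 0.60 to either side of the difference in a single line, so for the least precise gene, IGFBP5, differences of that size were not resolved. Of the 20 probe sets past the filter 0 passed for the mean of the lines, where 0.0183% of all probe sets did.

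IGFBP7 did not pass with the inhibitor in any line. In SUM149PT it read 428, 419 and 501 with DMSO and 482, 479 and 468 with AZD3965, overlapping groups with a log2 difference of 0.085 and a 95% interval of -0.25 to 0.42. It read 22906, 23749 and 20995 with DMSO and 23134, 23409.8 and 23135 with the inhibitor in HS578T, and 998, 976 and 877 against 1059, 947 and 1050.1 in SUM159PT, again with overlap in both. The interval was -0.29 to 0.37 in HS578T and -0.23 to 0.43 in SUM159PT. The knockdown and the inhibitor experiments had separate controls, and the difference between their effects was not tested for these genes.

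IGFBP3 was likewise close to its control, with intervals of -0.32 to 0.26 in HS578T, -0.40 to 0.17 in SUM149PT and -0.20 to 0.37 in SUM159PT. For IRS2 the 3 intervals were -0.035 to 0.74, -0.33 to 0.45 and -0.32 to 0.45 in the same order. IGFBP6 was higher by 0.24, 0.13 and 0.16 on the log2 scale, and the mean of 0.18 ± 0.075 (SE) did not pass (limma, adjusted p = 0.277).

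IRS1 gave the lowest adjusted p of the 10. In SUM149PT it read 1575, 1683 and 1735 with DMSO and 1453, 1203 and 1153 with AZD3965, so that all treated arrays lay below the controls. The log2 difference was -0.39 ± 0.11 (SE; 95% interval -0.62 to -0.16; limma, adjusted p = 0.143). Without the first AZD3965 array, the highest of the 3, it was -0.49, adjusted p = 0.0247, and under the other alternatives it did not pass. The differences in HS578T (-0.12) and SUM159PT (-0.18) were also below 0, and the mean over lines was -0.23 ± 0.065 with an adjusted p of 0.187. The other IRS1 probe sets gave 0.093 and -0.44 in SUM149PT, neither of which passed.

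IGF2R in SUM149PT read 1312, 915 and 1014 with DMSO and 857, 725 and 878 with AZD3965. The groups did not overlap, but the difference of -0.38 ± 0.12 did not pass (limma, adjusted p = 0.158), and it was 0.082 in HS578T and -0.087 in SUM159PT. IGF1R read 1490.2, 1285 and 1326 against 1603, 1794 and 1707 in SUM149PT and 409, 315 and 423 against 486, 450.4 and 459 in HS578T, in both lines with every treated array above every control. Neither difference passed, at 0.31 ± 0.17 (adjusted p = 0.359) and 0.28 ± 0.17 (adjusted p = 0.723). Its second brightest probe set, 225330_at, lay on the other side in SUM149PT, going from 998, 606 and 687 to 573, 442 and 376 without overlap, a log2 difference of -0.69 ± 0.20 (adjusted p = 0.196). The direction for IGF1R in SUM149PT thus depends on the probe set.

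Treated and control arrays did not overlap for 1 of the 10 genes in HS578T (IGF1R) where 19.3% of all genes did not, for 3 in SUM149PT (IGF1R, IGF2R and IRS1) where 21% did not, and for 0 in SUM159PT where 12.6% did not. An F test of whether the inhibitor effect differed between lines passed for none of the 10 genes (limma, lowest adjusted p = 0.462, for IGF2R; 1 gene at an unadjusted p under 0.05) and for 0.12% of all genes.

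**Figure D3:**
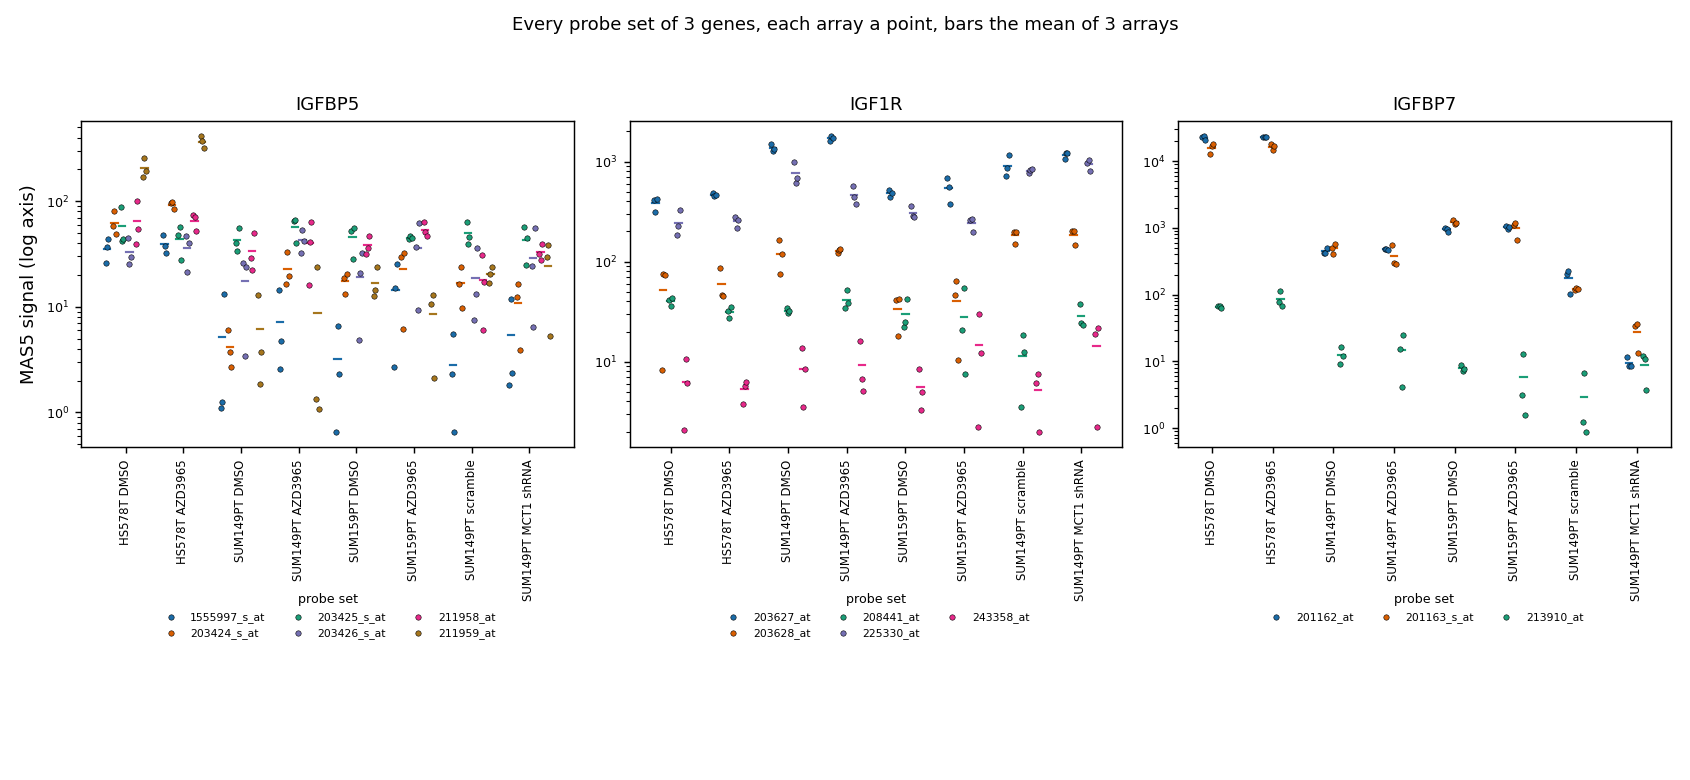
MAS5 signal (log axis) of every probe set of IGFBP5, IGF1R and IGFBP7, by group; points are arrays and short bars are means of 3 arrays. Probe set 211959_at of IGFBP5 is high in HS578T alone, 225330_at and 203627_at of IGF1R go opposite ways with AZD3965 in SUM149PT, and 201162_at and 201163_s_at of IGFBP7 are both lowest on the MCT1 shRNA arrays.

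The widest differences lay between the lines under DMSO. HS578T had far higher signals of IGFBP3 and IGFBP7 than the SUM lines and far lower ones of IRS2 and IGFBP2. Between HS578T and SUM149PT 8 of the 10 genes were called, 4 in each direction, where 64.2% of all genes were, 30.4% higher and 33.8% lower. Between HS578T and SUM159PT there were again 8, 4 in each direction, where 58% of all genes were called, 27.3% higher and 30.7% lower. Between SUM149PT and SUM159PT there were 6, 2 higher in SUM149PT and 4 lower, against 59.4% of all genes, 30% higher and 29.3% lower. Over probe sets the shares called were 55.3%, 48.1% and 50.3% in the same 3 comparisons.

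Among the binding proteins, IGFBP3 had the widest differences. It read 16085, 18641 and 15758 in HS578T, 141, 215 and 166 in SUM149PT and 284, 223 and 232 in SUM159PT. HS578T was 89.5-fold above SUM149PT (log2 difference 6.48 ± 0.14; limma, adjusted p = 1.80e-21) and 64.4-fold above SUM159PT, and SUM149PT against SUM159PT gave a log2 difference of -0.47 (adjusted p = 0.005), with nearest arrays at 215 and 223.

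IGFBP7 followed the same order, HS578T above SUM159PT above SUM149PT, without overlap between any 2 lines. It read 22906, 23749 and 20995 in HS578T, 998, 976 and 877 in SUM159PT and 428, 419 and 501 in SUM149PT. The differences were 5.60 ± 0.16 for HS578T against SUM149PT, 4.55 ± 0.16 for HS578T against SUM159PT and -1.06 ± 0.16 for SUM149PT against SUM159PT (limma, adjusted p = 3.94e-06 for the last). Its second probe set was called in the same 3 comparisons, at 4.94, 3.67 and -1.28, and the mean of the probe sets gave 4.03 and 3.33 for HS578T.

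IGFBP4 had another order, highest in SUM159PT at 2513, 2731 and 2282, then HS578T at 1127, 1236 and 996, then SUM149PT at 298, 261 and 284. No 2 lines overlapped, and SUM149PT lay 8.48-fold below SUM159PT (log2 difference -3.08 ± 0.13; limma, adjusted p = 1.02e-15). IGFBP2 read 5.76, 7.9 and 4.26 in HS578T, under the offset of 16, against 117, 141 and 117 in SUM149PT and 138, 130.4 and 55.1 in SUM159PT. HS578T was lower than both, with log2 differences of -2.68 and -2.42 that ranged with the offset from -1.26 to -4.20, while the SUM lines overlapped and did not pass against each other (0.26 ± 0.26; adjusted p = 0.411).

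IGFBP6 varied least of the called binding proteins, at 1770.2, 1305 and 1497 in HS578T, 1826, 1801 and 1977 in SUM149PT and 2192, 2162 and 1699 in SUM159PT. HS578T was lower than SUM149PT (log2 difference -0.30; limma, adjusted p = 0.0466) and than SUM159PT (-0.40; adjusted p = 0.0101). Both calls were marginal: without the second HS578T DMSO array they were -0.20, adjusted p = 0.239 and -0.30, adjusted p = 0.0775. The call against SUM149PT also ended without the third HS578T array or any 1 of the SUM149PT arrays (adjusted p = 0.0621 to 0.134), and without the filter, without the variance trend or with the mean of probe sets (adjusted p = 0.0505 to 0.0669), and that against SUM159PT without the first SUM159PT array (-0.34, adjusted p = 0.0536). SUM149PT and SUM159PT did not differ beyond their spread (-0.10 ± 0.13; adjusted p = 0.527).

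IGFBP5 depended on the probe set. The brightest, 203425_s_at, ran from 24.9 to 88.9 over all 24 arrays, with no difference between lines that passed. Probe set 211959_at read 168, 254 and 192 in HS578T, 12.9, 1.85 and 3.73 in SUM149PT and 12.6, 14.3 and 23.9 in SUM159PT, and HS578T was higher by 3.33 ± 0.35 and 2.74 ± 0.35 (limma over 32805 probe sets, adjusted p = 1.65e-08 and 5.05e-07). With AZD3965 in HS578T it read 413, 368 and 316, above every DMSO array, but the difference of 0.80 ± 0.35 did not pass (adjusted p = 0.658). Of the 6 IGFBP5 probe sets 3 were under the filter, and among these 203424_s_at read 58.3, 81.2 and 48.8 in HS578T and 2.67 to 20.6 in the SUM lines under DMSO.

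Among the substrates IRS2 had the wider differences. It read 35.6, 22.7 and 6.95 in HS578T, with 1 array under the offset, against 2519.6, 2427 and 2501 in SUM149PT and 3858, 3580.1 and 3618 in SUM159PT. HS578T lay 69.8-fold and 103-fold lower, log2 differences of -6.13 ± 0.19 and -6.69 ± 0.19 (limma, adjusted p = 1.50e-18 and 5.34e-19). With offsets of 1 and 64 these ran from -7.60 to -4.91, and with the mean of both probe sets they were -4.70 and -5.38, both still called. SUM149PT was below SUM159PT (log2 difference -0.57; adjusted p = 0.012), a call that ended with an offset of 1 (-0.57, adjusted p = 0.139). The second IRS2 probe set gave smaller differences in the same direction for HS578T, -3.27 and -4.06.

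IRS1 did not follow IRS2. It read 1223, 1501 and 1515 in HS578T and 1575, 1683 and 1735 in SUM149PT, which did not pass against each other (-0.24 ± 0.11; adjusted p = 0.0668), and 718, 721 and 654 in SUM159PT, below both. The differences from SUM159PT were 1.00 ± 0.11 for HS578T and 1.24 ± 0.11 for SUM149PT (limma, adjusted p = 5.08e-08 and 1.22e-09). HS578T against SUM149PT passed without the third HS578T DMSO array (-0.29, adjusted p = 0.0487) and with median centring (-0.34, adjusted p = 0.0401). Its other probe sets disagreed on that pair, with -1.15 by 238933_at and 0.84 by 242979_at, both called. They also disagreed on the SUM lines. By 242979_at SUM149PT read 74.1 ± 6.9 (SD, n = 3) and SUM159PT 80.3 ± 15.6, close together. By 238933_at they read 242 ± 43.6 and 63.4 ± 6.38, the same direction as the brightest probe set.

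IGF1R was highest in SUM149PT, at 1490.2, 1285 and 1326, against 409, 315 and 423 in HS578T and 517, 438 and 489 in SUM159PT. SUM149PT was above SUM159PT by 1.48 ± 0.17 (limma, adjusted p = 5.41e-08) and above HS578T, whose difference from it was -1.80 ± 0.17 (adjusted p = 1.42e-09). HS578T and SUM159PT did not pass against each other (-0.33 ± 0.17; adjusted p = 0.102), but did with quantile normalization (-0.38, adjusted p = 0.0491) and median centring (-0.42, adjusted p = 0.0446). The 2 other IGF1R probe sets past the filter gave the same calls in the 3 comparisons, and with the mean of the probe sets the SUM149PT differences shrank to -0.89 and 0.89, both still called.

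IGF2R was highest in HS578T, at 2328, 2531 and 2975, against 1312, 915 and 1014 in SUM149PT and 1279.8, 1151 and 1102 in SUM159PT. HS578T was higher by 1.27 ± 0.12 and 1.13 ± 0.12 (limma, adjusted p = 1.25e-09 and 1.30e-08), and the second probe set gave 1.88 and 1.58, both called. The SUM lines did not pass against each other (-0.14 ± 0.12; adjusted p = 0.337), except without the first SUM149PT DMSO array (-0.28, adjusted p = 0.0399).

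The rest of the pathway was followed through 91 other listed genes, of which 87 were named on the array and 78 were above the filter. IGF1, INS and IGFBP1 were under it, as were HTRA4, IGFBPL1, ADAM28, INSRR, CD93 and IGF2BP1. IGF2 was not among the named genes, so its signal was not read here. With MCT1 shRNA 26 of the 78 passed in limma, 18 higher and 8 lower. Of all genes 14.9% were called, 7.22% higher and 7.64% lower. The list was chosen with earlier results of these data known. Its counts and p-values in this comparison are therefore descriptions, and nothing is read from them about the list. The median log2 difference was 0.15 for the 78 genes and -0.0034 for all genes tested. In a fit of the 6 shRNA arrays alone 12 of the 78 passed, 10 higher and 2 lower, where 6.11% of all genes did, 3.18% higher and 2.93% lower. That fit ended the calls of CCN1, CCN2, CCN6, ADAM9, SOCS2, SOCS3, PIK3R1, AKT1, PHLPP1, CDKN1B and IGF2BP3 among the genes named here (adjusted p = 0.053 to 0.221). Without the third scramble array 26 of the 78 and 12.3% of all genes passed. Under median centring the split was 13 higher and 8 lower, where 12.2% of all genes were called. The share of higher calls among all genes called went from 48.6% to 23.1%. The calls of ADAM9 and IGF2BP3 ended (limma, adjusted p = 0.244 and 0.0989). With the mean of all probe sets of a gene in place of the brightest, the calls of CCN1, IGF2BP3, PHLPP1, PIK3R1, PRSS23, SOCS2 and SOCS3 among those named here ended (limma, adjusted p = 0.0554 to 0.936). CCN6 fell under the filter in that setting and was not tested.

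**Figure D4:**
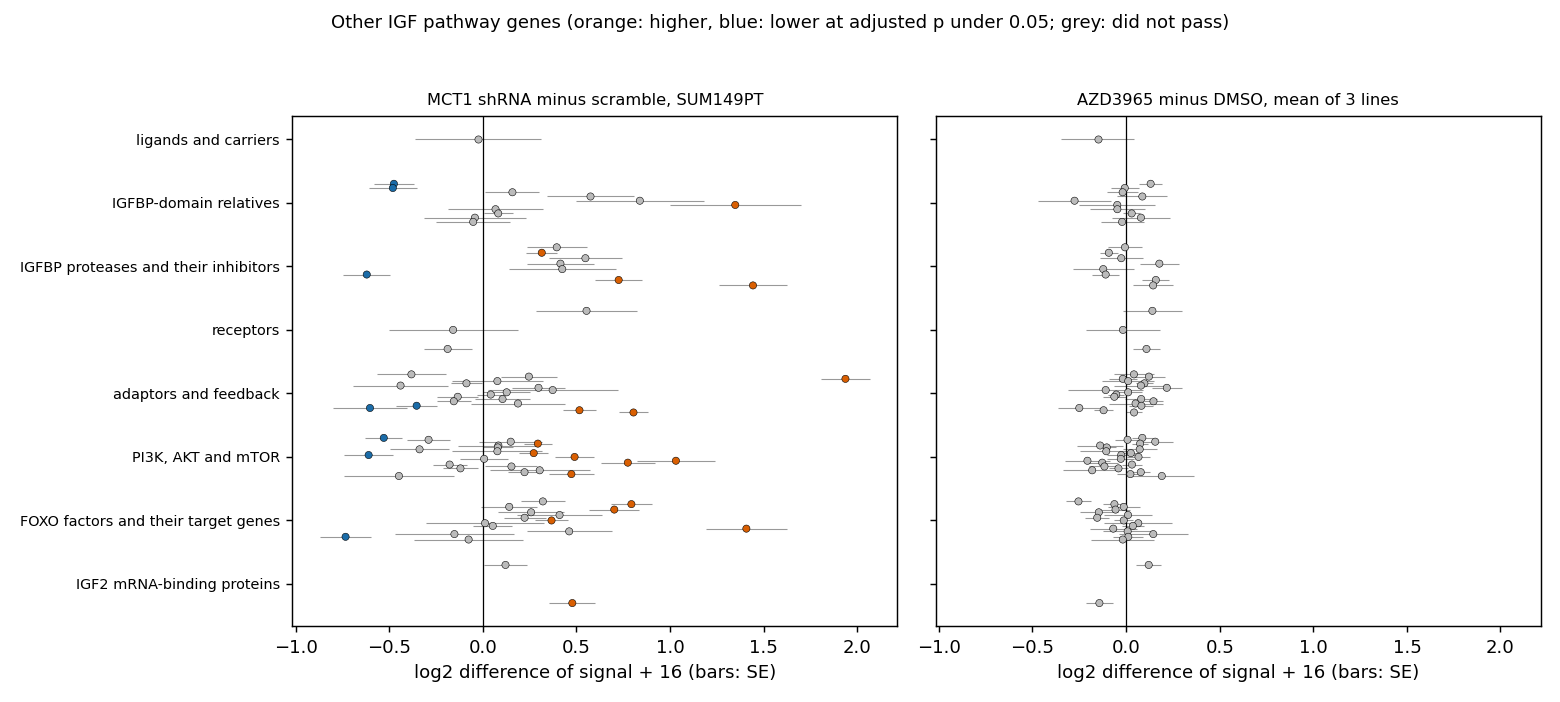
Log2 difference of signal + 16 for the 78 other IGF pathway genes past the filter, by list, with MCT1 shRNA in SUM149PT (left) and with AZD3965 as the mean of 3 lines (right); bars are SE, and colour marks genes past an adjusted p of 0.05. With the knockdown 18 genes are higher and 8 lower, and with the inhibitor 0 of the 78 pass.

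Among adaptors and feedback genes 3 of 18 rose and 2 fell with the knockdown. GRB10, an adaptor that binds IGF1R and the insulin receptor and restrains their signalling, rose from 58.6 ± 13 (SD, n = 3) to 268 ± 26.7 (1.94 ± 0.13 (SE); limma, adjusted p = 4.37e-10), and by 0.91 with the mean of its probe sets. Its mean in SUM149PT cells given DMSO, given below with the lines, lay between the scramble and knockdown means. TRIB3, a pseudokinase that binds AKT, rose from 1770.0 ± 59.5 to 3107 ± 166 (0.81 ± 0.076), and SOS1, a RAS exchange factor, by 0.52 ± 0.087. SOCS2 (-0.35) and SOCS3 (-0.60), suppressors of cytokine signalling, fell, but neither was stable. The SOCS2 call ended without any 1 of the 3 knockdown arrays (adjusted p = 0.0704 to 0.0833) and without the third scramble array (-0.28, adjusted p = 0.132). The SOCS3 call ended without knockdown array 2 or 3 or scramble array 1 or 2 (adjusted p = 0.0543 to 0.239).

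Of the 21 genes of PI3K, AKT and mTOR 6 rose and 2 fell. PIK3R3 and PIK3R1, regulatory subunits of PI3K, rose by 0.78 ± 0.14 and 1.03 ± 0.21, PIK3R1 from 491 ± 218 to 944 ± 29.9. With the mean of all its probe sets PIK3R1 differed by 0.41. The phosphatases of AKT went opposite ways, PHLPP2 higher by 0.49 ± 0.10 and PHLPP1 lower by a log2 difference of -0.61 ± 0.13. AKT1 itself fell from 767 ± 135 to 522 ± 4.49 (-0.53 ± 0.10; adjusted p = 0.000664).

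Of the 8 proteases and inhibitors that act on the binding proteins 3 rose and 1 fell. The stanniocalcins STC2 and STC1, secreted inhibitors of PAPPA, rose from 412 ± 166 to 1077 ± 28 (1.44 ± 0.18; limma, adjusted p = 6.65e-06) and from 1062 ± 123 to 1769 ± 229.6 (0.73 ± 0.13). PAPPA itself, singled out here after its values were seen, did not pass, at 0.42 ± 0.18 (adjusted p = 0.128). The metalloprotease ADAM9 rose by 0.32 ± 0.083, a call that ended without the first knockdown array (0.27, adjusted p = 0.0674) and without the third scramble array (0.23, adjusted p = 0.0716). PRSS23 fell by 0.62 ± 0.13.

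Among the 10 relatives that carry an IGFBP domain, CCN1 fell from 3971 ± 618 to 2855 ± 452 (-0.47 ± 0.11) and CCN2 from 1278 ± 269 to 899 ± 59.8 (-0.48 ± 0.13), both matricellular proteins. CCN6 rose from 21.3 ± 14.7 to 79.3 ± 39.3 (1.35 ± 0.35). The CCN2 call ended without the second knockdown array (-0.44, adjusted p = 0.055) and without the third scramble array (-0.34, adjusted p = 0.0864). The CCN6 call ended without the third knockdown array (1.03, adjusted p = 0.0804) and without the first scramble array (1.14, adjusted p = 0.0546).

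FOXO factors and genes known as their targets gave 4 of 15 higher and 1 lower. BCL6, a transcriptional repressor, rose from 816 ± 126 to 1423 ± 184 (0.79 ± 0.11) and CDKN1B, the cell cycle inhibitor p27, by 0.70 ± 0.13. KLF15, a transcription factor, was dim and rose from 14 ± 7.31 to 62.8 ± 10.4 (1.41 ± 0.22, and 0.61 with the mean of its probe sets, 0.70 at an offset of 64 and 2.17 at 1). SESN1, an inhibitor of mTOR complex signalling, fell from 232 ± 21.7 to 133 ± 2.77 (-0.73 ± 0.14). IGF2BP3, an RNA-binding protein first found on IGF2 mRNA, rose by 0.48 ± 0.12 (adjusted p = 0.00976). None of the 3 receptors past the filter, INSR, LRP1 and TMEM219, passed, nor did the IGF carrier IGFALS.

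With AZD3965 almost none of the same list passed. The inhibitor gave 1 call among the 78 genes in HS578T, 0 in SUM149PT, 0 in SUM159PT and 0 for the mean. Of all genes tested 0.304%, 0.0283%, 0% and 0.0283% were called, so few calls were not particular to this list. At an unadjusted limma p under 0.05 there were 8, 12, 7 and 10 of the 78, against 8.28%, 16.5%, 6.75% and 14.5% of all genes. The gene called was BCL2L11, the pro-apoptotic protein BIM, which fell in HS578T from 321 ± 26.3 to 213 ± 7.9 (-0.56 ± 0.12; adjusted p = 0.0356). That call ended without any 1 of the 6 HS578T arrays (adjusted p = 0.0603 to 0.163). In SUM149PT 3 of the 78 genes passed without the first AZD3965 array. The share of all genes called in that fit is not given here, so nothing is read from that count. GRB10 and STC2 are given here because of their values with the knockdown: GRB10 differed by -0.0068 ± 0.13 with the inhibitor in SUM149PT, and STC2 by 0.17 ± 0.18.

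Between lines, where 64.2%, 58% and 59.4% of all genes were called, most of the other pathway genes were called too. HS578T against SUM149PT gave 37 higher and 18 lower of 78, HS578T against SUM159PT 36 and 19, and SUM149PT against SUM159PT 20 and 29. PAPPA, the protease that cleaves IGFBP4, read 1316 ± 135 in HS578T, 1226 ± 192 in SUM149PT and 5.2 ± 5.66 in SUM159PT (SUM149PT against SUM159PT 5.89 ± 0.18; limma, adjusted p = 2.03e-18). SUM159PT had the highest signal of its substrate IGFBP4, but HS578T lay 3.81-fold above SUM149PT in IGFBP4 with a similar PAPPA signal. Both are RNA signals, and a link between them was not tested. INSR, the insulin receptor, read 12.7 ± 1.3 in HS578T, 43.6 ± 14.6 in SUM149PT and 389.7 ± 27.5 in SUM159PT. It was higher in SUM159PT than in SUM149PT (-2.79 ± 0.27). GRB10 was high in HS578T (5632 ± 164) and SUM159PT (3810.4 ± 140.0) and low in SUM149PT (224 ± 48.4), as was the metalloprotease ADAM12 (3554 ± 393, 2137 ± 112 and 56.5 ± 6.79). CCN4, with 6284 ± 397 in HS578T against 11.2 ± 8.94 in SUM149PT, and DEPTOR, an mTOR inhibitor, with 2704 ± 176 against 48.7 ± 7.27, were called as well (7.91 for CCN4, and 42.1-fold for DEPTOR). IGF2BP3 read 1485 ± 109 in HS578T, 218 ± 14.5 in SUM149PT and 786 ± 35.4 in SUM159PT, and each pair of lines was called (log2 differences 2.68, 0.90 and -1.78). PAPPA in SUM159PT and CCN4 in SUM149PT were under the offset of 16, so the sizes of their differences depended on it. With offsets of 64 and 1 SUM149PT against SUM159PT was 4.21 and 8.06 for PAPPA, and HS578T against SUM149PT was 6.40 and 9.41 for CCN4. The sizes also depended on the probe set rule. With the mean of probe sets SUM149PT against SUM159PT was 2.50 for PAPPA and -1.55 for INSR. HS578T against SUM149PT was 2.46 for GRB10, 3.92 for ADAM12, 6.41 for CCN4 and 2.81 for DEPTOR. These calls stayed, but that of INSR in HS578T against SUM149PT ended (from -1.03 to -0.31; limma, adjusted p = 0.249). Those of TMEM219, PDPK1 and IGF2BP2 in the same comparison ended as well.

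Over the 24 arrays the genes most like each member were found by Pearson's r on the log2 scale, as a description, since arrays of a line share their background and the differences between lines dominate. For IGFBP7 they were TGOLN2 (r = 0.984), COL13A1 (0.983), ARL15 (0.982), PLS3 (0.981) and CCN1 (0.979). GPNMB (0.996) and TRAM2 (0.99) were nearest to IGFBP3, ANPEP (0.99) and SLC25A33 (0.989) to IRS2, COTL1 (0.983) and RAB27A (0.982) to IGFBP4, and TIGD2 (0.977) and ODR4 (0.976) to IGFBP2. NCOA2 (0.981) and INHBE (0.971) followed IGF2R, UGP2 (0.960) and IL13RA2 (0.957) IGF1R, AFF1 (0.970) and KLHL9 (0.966) IRS1, and TUBG1 (0.922) and AKT1 (0.908) IGFBP6. For IGFBP5, by its brightest probe set, the nearest genes reached only 0.689 (KLHL1) and 0.652 (LINC01558).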

How the data were processed

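RNA of 24 cell line samples was hybridised to 1-colour Affymetrix arrays, and the deposited values are MAS5 intensities, linear signals that the authors scaled to a common trimmed mean, per the submitters' processing notes and the values. The MAS5 version and scaling target are not given in the sources used here, and MAS5 detection calls were not used here. Probe sets with 1 gene symbol in the platform annotation (41097 of 54675) were used. Signals were turned into log2(signal + 16), which understates differences of dim genes, each gene was given by its brightest probe set, and genes with a mean log2 value below 5.58, the 40th percentile over probe sets, were left out. One limma 3.58.1 model (R 4.3.3) with 8 group means, a mean-variance trend and 16 residual degrees of freedom gave differences, SE, 95% intervals and p-values, with Benjamini-Hochberg adjustment over 14141 genes or 32805 probe sets and a threshold of 0.05. The script was tested on simulated data. The members, pathway lists and marker lists were chosen with earlier results of these data known. Members are named in every comparison, other pathway genes where called with AZD3965 or among up to 3 called genes of smallest p each way per list, and for likeness the 5 nearest genes of IGFBP7 and the 2 nearest of the others. Same-numbered arrays of different groups did not deviate together (12 correlations from -0.131 to 0.0834, 5 of 12 highest with their own number), so replicate numbers were not treated as pairs. Array number limits the precision. Alternatives were other offsets, scalings, filters, probe set rules, variance models and samples.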

Additional observations from a re-analysis of the deposited data

How the results depend on the processing

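Over 10 settings and 24 fits without 1 array, 338 of 350 values of the 22 called member comparisons stayed called in the same direction, 12 were not past the threshold and 0 reversed. Of 869 values of the 48 comparisons not called, 6 passed. For the other pathway genes the single call with AZD3965 in HS578T became 0 with an offset of 64, quantile normalization, median centring, no filter, the mean of probe sets, only the groups compared, and the replicate number as a block. The count with MCT1 shRNA went from 26 to 12 with only the groups compared. With the mean of probe sets, PTPN1 in HS578T against SUM159PT reversed from -0.67 to 0.11 and PRSS23 in SUM149PT against SUM159PT from 0.38 to -0.15; the cause was not tested. Leaving out 1 array, members called ranged from 0 to 1 with AZD3965 in SUM149PT, 7 to 8 in both comparisons with HS578T and 6 to 7 between the SUM lines, and members not overlapping with MCT1 shRNA from 6 to 8. Other pathway genes called ranged from 23 to 26 with MCT1 shRNA, 0 to 0 with AZD3965 in HS578T and 0 to 3 in SUM149PT. For these AZD3965 fits the share of all genes called is not given here. With the replicate number as a block, 25 other pathway genes were called with MCT1 shRNA and 7 members between HS578T and SUM149PT, where IGFBP6 was lost (adjusted p = 0.056), and same-numbered arrays shared only a number. Median centring moved the share of higher calls among all genes called from 69.8% to 97.1% with AZD3965 in HS578T and from 75% to 50% in SUM149PT. Before centring these shares rested on few calls, 30 higher and 13 lower in HS578T and 3 higher and 1 lower in SUM149PT. Signals under the offset of 16 (among them IGFBP7 with MCT1 shRNA, IGFBP2 and 1 array of IRS2 in HS578T, CCN4 in SUM149PT and PAPPA in SUM159PT) limit the size of their differences.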
